A study of Rattus norvegicus with 8 samples.

Results

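A set of 6 genes of vascular and nitric oxide signalling was followed in the rat hippocampus, out of 32623 genes in the count table. They were chosen by Ensembl gene ID as Nos1 (ENSRNOG00000001130), Nos3 (ENSRNOG00000009348), Edn1 (ENSRNOG00000014361), Kdr (ENSRNOG00000046829), Vegfa (ENSRNOG00000019598) and Vwf (ENSRNOG00000019689). All 6 were found, and all 6 passed the filter on low counts. RNA sequencing compared 2 inbred strains, the spontaneously hypertensive rat (SHR), in which blood pressure rises with age, and its normotensive relative, the Wistar-Kyoto rat (WKY). Each strain gave 4 libraries of hippocampal tissue, taken at 32 weeks of age under sodium pentobarbital anaesthesia. Both strains were anaesthetised alike, and no other treatment is given in the sources used here, nor is the sex of the animals. No label ties the 8 libraries to 8 animals. The p-values thus set a strain difference against the spread among these libraries only, and that spread may be technical.

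Nitric oxide is a gas made from arginine by the nitric oxide synthases, and it activates soluble guanylyl cyclase in nearby cells. In the hippocampus the neuronal synthase is found mainly in neurons, including a subset of inhibitory interneurons, while the endothelial synthase acts in the vessel wall, where nitric oxide relaxes smooth muscle. Endothelin is a peptide with the opposite action on vessels, and vascular endothelial growth factor (VEGF) signals from glia and neurons to receptors on endothelial cells. The study asked which hippocampal genes go with hypertension, and the comparison here is that of the strains at these 6 genes.

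The libraries held 45048841 to 49560687 counts in SHR and 53045139 to 53699673 in WKY, without overlap, so that any step which set the depth cannot be told apart from strain. Levels are given as CPM, the counts of a gene scaled to a common library total by edgeR's TMM method. WKY replicate 4 stood apart from the other WKY libraries. Along the leading principal component of all tested genes, computed on log2 CPM, it scored 36.7, beside SHR at 11.5 to 28.9 and WKY replicates 1 to 3 at -40.9 to -30.5. Each strain difference is therefore given with and without that library. Its log2 CPM over all genes tested correlated at a mean of 0.970 with the SHR libraries and 0.965 with the other WKY libraries, which is a description across genes. With the SHR libraries, WKY replicates 1 to 3 had means of 0.969 to 0.972, and the SHR libraries had 0.974 to 0.978 with each other. The strain label of WKY replicate 4 is in doubt and was not tested here. A strain difference over 8 libraries takes that label as given. That library was singled out with this known, so a p-value without it describes the other 7 libraries and is no independent test of strain.

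Over all 8 libraries, 0 of the 6 genes passed the test between the strains (edgeR quasi-likelihood test at an adjusted p of 0.05, a threshold that 0.0356% of all genes tested passed). At an unadjusted p under 0.05 there were 2, Nos3 and Vwf, against 12.1% of all genes tested, and limma-voom (0.0296% of all genes) and DESeq2 (1.98%) also called 0 of the 6. Without WKY replicate 4, Nos1 rose and Vwf fell in SHR, so that 2 of 6 were called where 2.69% of all genes were. The median log2 fold change of the 6, SHR relative to WKY, was -0.19 over 8 libraries and -0.095 without WKY replicate 4. Over all genes tested it was -0.0044 and -0.00065. It joins 1 gene that was higher in SHR with 5 that were lower.

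The 3 upstream sequences below show the start regions of genes whose levels are contrasted: Nos1 and Nos3, whose fold changes had opposite signs, and Kdr, an endothelial gene whose pattern over the libraries was unlike that of Nos3. They are from RefSeq (build GRCr8), which held promoters of 5 of the 6 genes, all but Vwf. Each line gives the 250 bases before the annotated start, 5′ to 3′ on the gene's strand. Capitals mark the GC box GGGCGG and the cyclic AMP response element half-site TGACG, each searched on both strands.
Nos1, chr12:44371838-44372087, minus strand: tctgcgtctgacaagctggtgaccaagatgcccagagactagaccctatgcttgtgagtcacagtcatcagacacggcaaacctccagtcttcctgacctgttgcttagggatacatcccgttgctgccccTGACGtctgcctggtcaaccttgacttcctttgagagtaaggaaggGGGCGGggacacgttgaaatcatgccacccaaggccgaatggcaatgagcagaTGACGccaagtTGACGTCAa
Nos3, chr4:11706582-11706831, minus strand: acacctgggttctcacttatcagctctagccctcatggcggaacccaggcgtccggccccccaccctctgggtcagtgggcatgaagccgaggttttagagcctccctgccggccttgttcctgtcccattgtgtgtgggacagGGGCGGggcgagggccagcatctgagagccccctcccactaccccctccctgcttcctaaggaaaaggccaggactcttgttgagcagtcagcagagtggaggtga
Kdr, chr14:32571813-32572062, plus strand: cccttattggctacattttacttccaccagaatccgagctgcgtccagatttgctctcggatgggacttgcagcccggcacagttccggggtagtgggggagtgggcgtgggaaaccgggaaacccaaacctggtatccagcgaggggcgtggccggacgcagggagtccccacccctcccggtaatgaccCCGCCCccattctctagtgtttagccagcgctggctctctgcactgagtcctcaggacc
A GC box was present in these 3 and at the first of the 2 Vegfa starts, but not at the second or in the Edn1 sequence. It was present in 30.5% of 33469 RefSeq promoters cut to the same length. The Nos1 sequence held 4 matches to the half-site, and 2 of them overlap as the whole element TGACGTCA just before the start. The half-site was present in 18.2% of all promoters and the whole element in 1.59%. Neither was present in the Nos3 or Kdr sequence. These motifs are part of a wider set that was searched in all the sequences. From the rest of that set, Nos1 also held TGACTCA (4.05% of all promoters) and ACGTG (16.6%). ACGTG was present in the Edn1 sequence too. Edn1 and Vegfa held matches to others of that set, and Nos3 and Kdr held none of the rest. RefSeq lists 6 transcripts of Nos1 and 14 of Vegfa, and the deposited counts are per gene, so the start that was used in these libraries is not known.

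Nos1 encodes the neuronal nitric oxide synthase. Its level was 33.8, 26.6, 27.6 and 73.1 CPM in WKY replicates 1 to 4. In SHR replicates 1 to 4 it was 61.2, 49.0, 76.6 and 47.2 CPM. The 4 SHR libraries and WKY replicate 4 all lay above WKY replicates 1 to 3, and WKY replicate 4 was second only to SHR replicate 3. The ranges of the strains therefore overlapped over 8 libraries. The SHR mean was 58.5 ± 13.6 CPM and the WKY mean 40.3 ± 22.1 CPM (SD, n = 4 each). The log2 fold change was 0.54 ± 0.31 (SE), with a 95% interval of -0.15 to 1.23 and an adjusted p of 0.524 (edgeR).

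With WKY replicate 4 left out, Nos1 rose 1.99-fold in SHR, by 0.995 ± 0.17 (SE) on the log2 scale (edgeR, adjusted p = 0.0177). WKY replicates 1 to 3 averaged 29.3 ± 3.85 CPM (SD, n = 3), and the highest of them, at 33.8 CPM, was below the lowest SHR library, at 47.2 CPM. No other single library, when left out, brought the gene past the threshold. Within SHR, Nos1 varied more than most genes of its level. Its coefficient of variation was 23.2%, where the median was 9.32% over the 2522 genes whose mean log2 CPM lay within 0.5 of it. The highest 2 of the 8 libraries, SHR replicate 3 and WKY replicate 4, came from different strains.

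Nos3 encodes the endothelial nitric oxide synthase. It was at 11.0, 13.7, 12.5 and 8.02 CPM in WKY replicates 1 to 4. The SHR libraries were at 8.20, 9.95, 7.16 and 8.58 CPM. WKY replicate 4 was again among the SHR libraries, lower than 3 of them, and WKY replicates 1 to 3 were the highest of the 8. The SHR mean was 8.47 ± 1.15 CPM and the WKY mean 11.3 ± 2.44 CPM (SD, n = 4 each). The log2 fold change was -0.42 ± 0.18 (SE), with a 95% interval of -0.81 to -0.023 and an adjusted p of 0.388 (edgeR).

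Leaving out WKY replicate 4 moved the Nos3 log2 fold change to -0.55 ± 0.15 (SE), with an adjusted p of 0.0827 (edgeR). Nos3 was thus not called by edgeR or by limma-voom (adjusted p = 0.0788) on those 7 libraries, but was by DESeq2 (adjusted p = 0.0169). DESeq2 called 7.14% of all genes there and limma-voom 2.56%. The ranges did not overlap without that library, since the highest SHR library was at 9.95 CPM and the lowest of WKY replicates 1 to 3 at 11.0 CPM. The spread within SHR was close to that of genes of like level, with a coefficient of variation of 13.6% against a median of 14.2%.

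Vwf encodes von Willebrand factor, a large glycoprotein that endothelial cells store and release and that binds platelets to injured vessel walls. Its level was 47.7, 62.0, 64.7 and 36.8 CPM in WKY replicates 1 to 4. In SHR it was 43.1, 36.9, 29.5 and 30.1 CPM in replicates 1 to 4. All SHR libraries lay below WKY replicates 1 to 3, and WKY replicate 4 was below SHR replicates 1 and 2. The SHR mean was 34.9 ± 6.41 CPM and the WKY mean 52.8 ± 13.0 CPM (SD, n = 4 each). Vwf had the smallest p of the 6 genes over 8 libraries, with a log2 fold change of -0.60 ± 0.19 (SE), a 95% interval of -1.01 to -0.18 and an adjusted p of 0.264 (edgeR). Its unadjusted p of 0.00905 ranked 573 among the 16867 genes tested.

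Without WKY replicate 4, Vwf fell by 0.74 on the log2 scale in SHR, with an SE of 0.15, which is 1.67-fold lower (edgeR, adjusted p = 0.0377). WKY replicates 1 to 3 averaged 58.1 ± 9.13 CPM (SD, n = 3). DESeq2 (adjusted p = 0.000432) and limma-voom (adjusted p = 0.0356) called it on the same 7 libraries. In these bulk samples, fewer endothelial cells and less Vwf or Nos3 RNA per cell cannot be told apart.

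**Figure D1:**
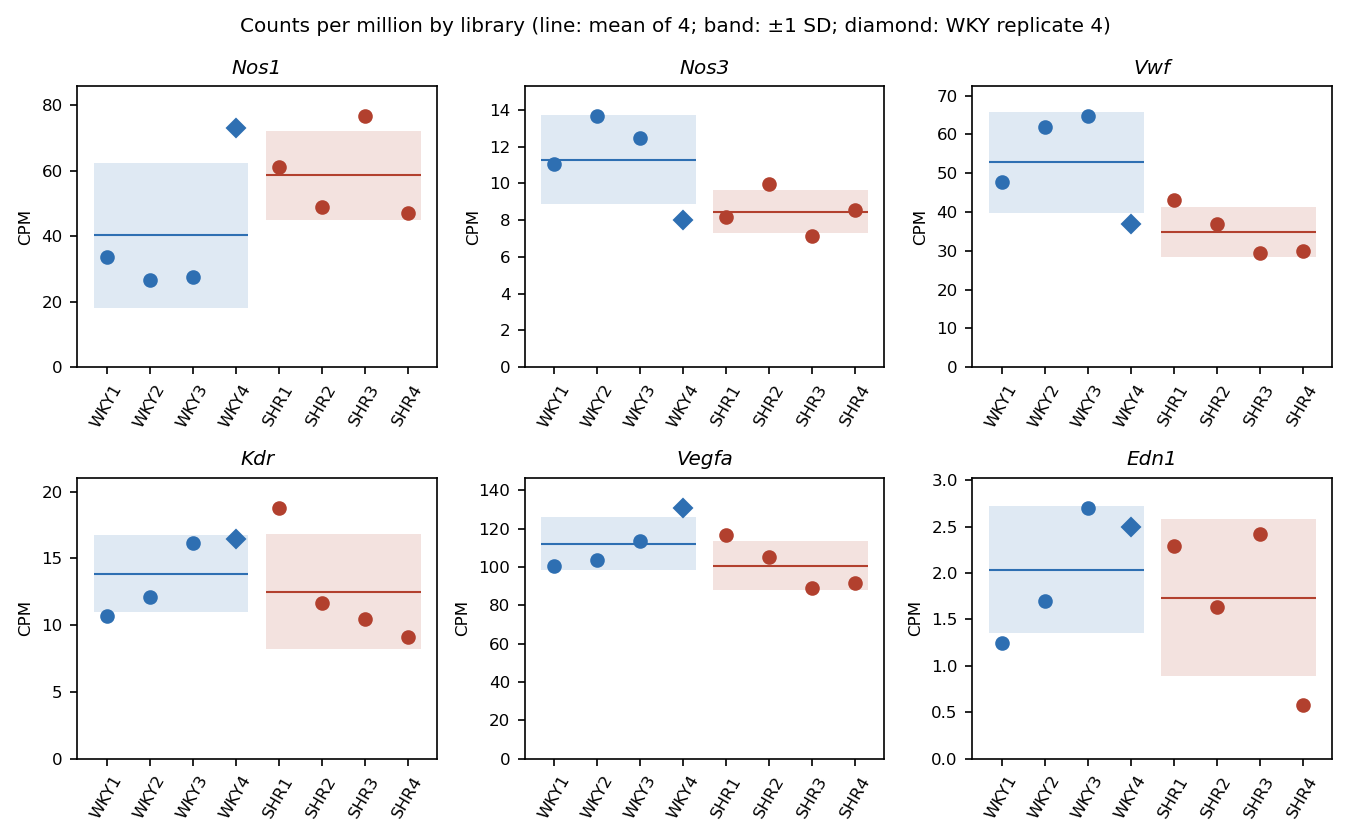
TMM-scaled CPM of the 6 genes in each library, with WKY replicates 1 to 4 (blue) and SHR replicates 1 to 4 (red) along the horizontal axis, the mean of each strain as a line and ±1 SD as a band. For Nos1, Nos3 and Vwf the diamond of WKY replicate 4 (73.1, 8.02 and 36.8 CPM) lies within the SHR range, whereas for Kdr, Vegfa and Edn1 the points of the 2 strains overlap with or without it.

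Kdr encodes VEGF receptor 2, the main signalling receptor of VEGF on endothelial cells. It was at 10.7, 12.1, 16.2 and 16.5 CPM in WKY replicates 1 to 4. The SHR libraries were at 18.8, 11.6, 10.5 and 9.14 CPM. The highest and the lowest library were both SHR, and the WKY libraries lay between them. The log2 fold change was -0.15 ± 0.23 (SE), with a 95% interval of -0.66 to 0.37 and an adjusted p of 0.847 (edgeR). It was -0.055 without WKY replicate 4 (adjusted p = 0.943) and -0.41 without SHR replicate 1 (adjusted p = 0.451). The interval leaves room for a change of the size measured in Nos3, so a like fall in Kdr was not detectable at this spread. Within SHR the coefficient of variation was 34.5%, against a median of 12.8% for genes of like level, with SHR replicate 1 well above the other 3.

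Vegfa encodes the VEGF-A ligand, a growth factor that is induced by low oxygen. Its level was 100.3, 103.7, 113 and 131 CPM in WKY replicates 1 to 4. It was 116, 105, 89.1 and 91.7 CPM in SHR replicates 1 to 4. WKY replicate 4 was the highest library, and SHR replicates 3 and 4 were the lowest, with the other 5 between 100.3 and 116 CPM. Here WKY replicate 4 was farther from SHR than the other WKY libraries were. It had the narrowest interval of the 6 genes, with a log2 fold change of -0.16 ± 0.11 (SE) and 95% bounds of -0.40 and 0.092 (edgeR, adjusted p = 0.609). Without WKY replicate 4 it was -0.072 ± 0.10 (edgeR, adjusted p = 0.789).

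Edn1 encodes the precursor of endothelin-1, a vasoconstrictor peptide made by endothelial cells. It had the fewest reads, with 66, 89, 144 and 134 counts in WKY replicates 1 to 4 and 100, 76, 124 and 28 counts in SHR replicates 1 to 4. The corresponding levels were 1.24, 1.69, 2.71 and 2.50 CPM in WKY. In SHR they were 2.30, 1.64, 2.43 and 0.583 CPM. SHR replicate 4 was the lowest library, below the lowest WKY library, and the other 7 were mixed between the strains. The log2 fold change was -0.23 ± 0.42 (SE), with a 95% interval of -1.16 to 0.70 and an adjusted p of 0.874 (edgeR). The sign rested on SHR replicate 4, since leaving it out gave 0.058 (edgeR, adjusted p = 0.973). Without WKY replicate 4 the estimate was -0.12 ± 0.45 (SE; edgeR, adjusted p = 0.935). No strain difference in Edn1 was detectable at this depth and spread.

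**Figure D2:**
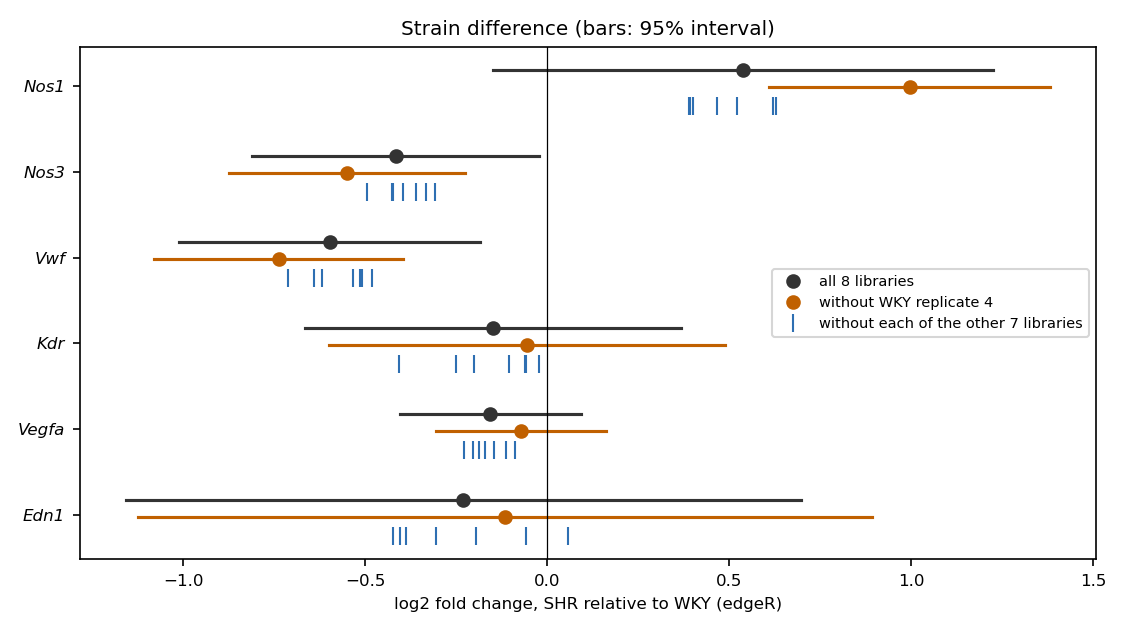
Log2 fold change of each gene, SHR relative to WKY (horizontal axis), from edgeR with 95% intervals over all 8 libraries (black) and without WKY replicate 4 (orange). Blue ticks give the estimate with each of the other 7 libraries left out. Nos1 moves from 0.54 to 0.995 without WKY replicate 4, and a tick of Edn1 crosses 0, at 0.058 without SHR replicate 4.

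None of the 6 genes had ranges that kept the strains apart over 8 libraries, where 6.72% of all genes did. Without WKY replicate 4 the ranges of Nos1, Nos3 and Vwf did not overlap, which is 3 of 6 beside 17.2% of all genes (8.12% higher and 9.08% lower in SHR). At these 3 genes WKY replicate 4 was at or past the nearest SHR library. That was so at 61.0% of the 2907 genes whose ranges did not overlap without it, so it was not particular to these 3.

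**Figure D3:**
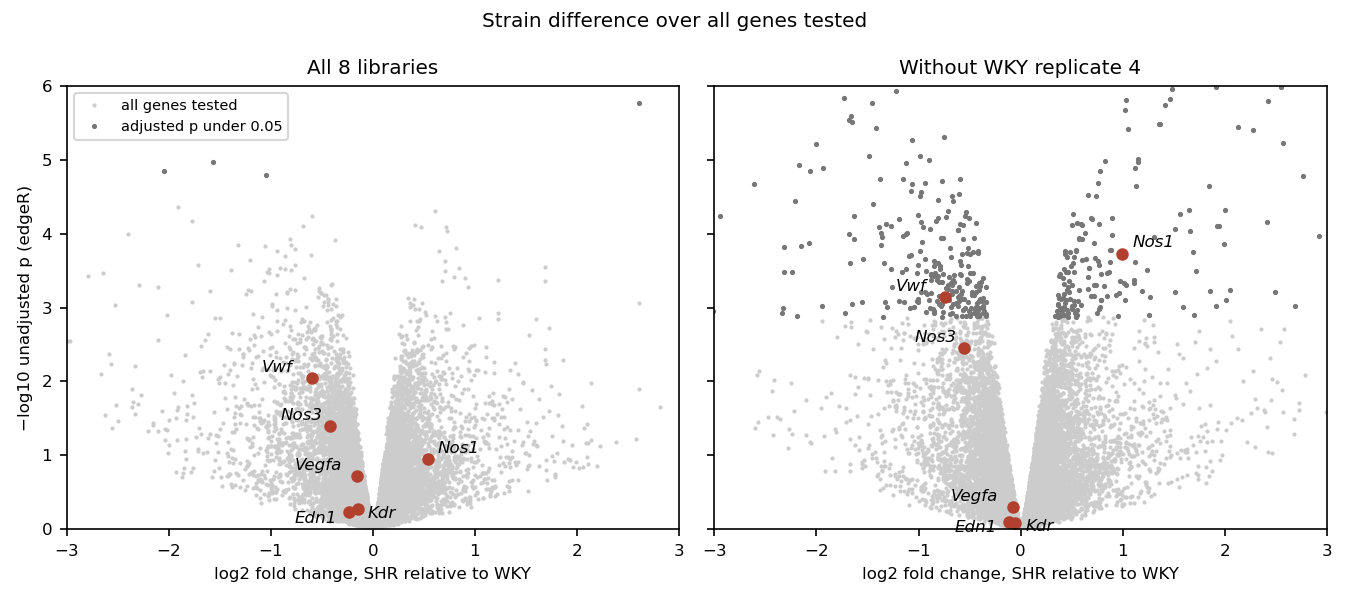
Unadjusted p of edgeR on a −log10 scale against the log2 fold change, SHR relative to WKY, for the genes tested over 8 libraries (left) and the same genes without WKY replicate 4 (right). The 6 genes are in red, grey points are all genes and dark points are genes with an adjusted p under 0.05. There are 30 genes beyond the axes on the left and 63 on the right. Nos1 and Vwf lie among the dark points in the right panel only.

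The 6 genes were then compared with each other by their pattern over the 8 libraries, as the root mean square difference of log2 CPM after each gene was centred on its own mean. Of the 15 pairs, Nos3 and Vwf were the closest, at 0.19 log2 units. Kdr and Vegfa, receptor and ligand, came next at 0.21. Edn1 was closest to Kdr, at 0.48. Among the 6, Nos1 was the farthest from its closest gene, at 0.58 from Vegfa and up to 0.92 from Vwf. These distances are descriptions over libraries that share 1 scaling. Many other genes were as close: of 13355 genes, 360 lay nearer to Nos3 than Vwf did, and 66 lay nearer to Vwf than Nos3 did. For the receptor and its ligand, 37 genes lay nearer to Kdr than Vegfa did, but 3900 lay nearer to Vegfa than Kdr did. The pattern of Nos1 was shared outside the 6, since 5773 genes lay nearer to it than Vegfa did, the closest at 0.13.

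**Figure D4:**
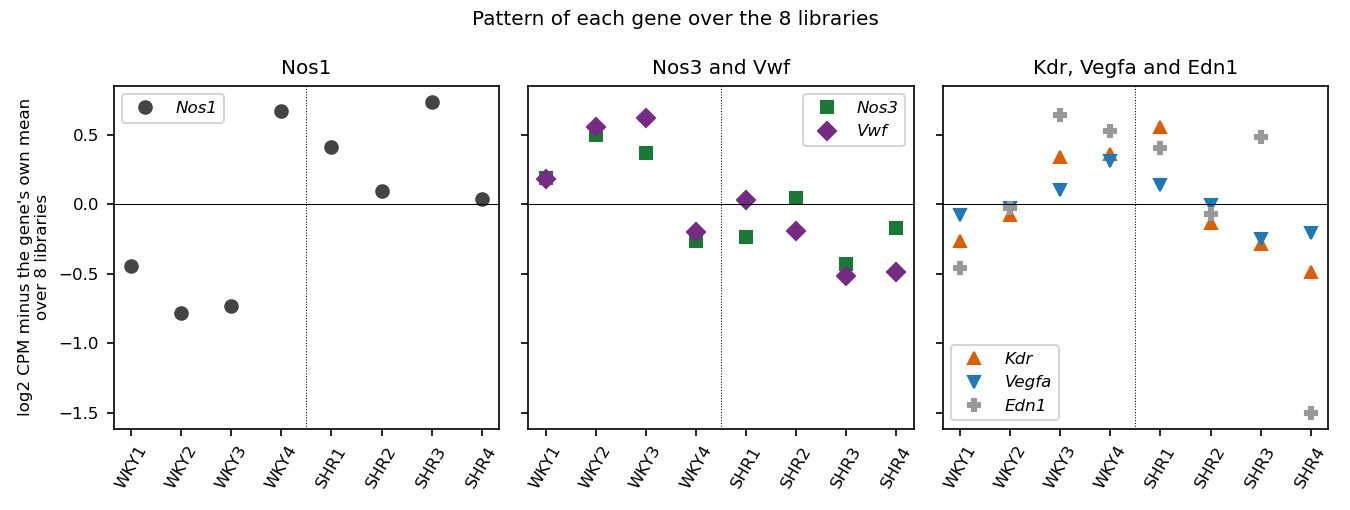
Log2 CPM of each gene minus its own mean over the 8 libraries (vertical axis), by library, with the dotted line between WKY and SHR. Nos3 and Vwf (middle) are high in WKY replicates 1 to 3 and lower in the other 5 libraries, Nos1 (left) is the reverse, and Kdr and Vegfa (right) are high in WKY replicates 3 and 4 and SHR replicate 1, while Edn1 is low in SHR replicate 4.

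Among genes averaging 1 or more on the log2 CPM scale, the nearest matches to any of the 6 were ENSRNOG00000010598 for Nos3, at 0.064 log2 units, and ENSRNOG00000011800 for Vegfa, at 0.071. ENSRNOG00000010598 was at 28.9, 36.4, 35.7 and 20.3 CPM in WKY replicates 1 to 4 and at 20.6, 24.9, 19.7 and 23.2 CPM in SHR replicates 1 to 4. The files pair neither ID with a symbol.

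Ratios within a library remove any factor that scales both genes alike. They are not corrected for transcript length, so only their differences between libraries are read. The log2 ratio of Nos1 to Nos3 was 1.61, 0.96, 1.15 and 3.19 in WKY replicates 1 to 4, and 2.90, 2.30, 3.42 and 2.46 in SHR. Libraries high in the neuronal synthase were low in the endothelial one. WKY replicate 2 had the lowest Nos1 and the highest Nos3, and SHR replicate 3 the reverse. The span of the ratio over the 8 libraries, 5.49-fold, thus follows from those of Nos1 (2.88-fold) and Nos3 (1.91-fold) and is no further result. By contrast the ratio of Nos3 to Vwf spanned 1.499-fold, less than Nos3 or Vwf (2.19-fold) alone. This ratio was chosen after seeing the data, and its narrow span restates that these genes were the closest pair in pattern. The log2 values of this ratio were -2.37 to -2.11 in WKY and -2.39 to -1.81 in SHR.

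Against Kdr, another of the endothelial genes, the log2 ratio of Vwf was 2.16, 2.35 and 1.999 in WKY replicates 1 to 3, and 1.16 in WKY replicate 4. It was 1.19, 1.67, 1.49 and 1.72 in SHR replicates 1 to 4. The SHR libraries thus lay below WKY replicates 1 to 3, and WKY replicate 4 lay just below SHR replicate 1. Vwf RNA was therefore lower relative to Kdr RNA in these 5 libraries. Vwf alone already split the libraries in this way, so the split of the ratio is no further result. Without WKY replicate 4, the ranges of 17.2% of all genes did not overlap, and the share among ratios was not computed. The lowest ratios were in the libraries with the highest Kdr, WKY replicate 4 (16.5 CPM) and SHR replicate 1 (18.8 CPM). The log2 ratio of Nos3 to Kdr overlapped between the strains, at -0.37 to 0.17 in WKY replicates 1 to 3, -1.04 in WKY replicate 4 and -1.20 to -0.09 in SHR.

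The ratio of ligand to receptor, Vegfa to Kdr, averaged 3.06 ± 0.30 in the SHR libraries and 3.03 ± 0.18 in the WKY libraries on the log2 scale (SD, n = 4 each). WKY replicate 4, at 2.99, lay between the other WKY libraries, which were at 2.81 to 3.23. The ratio of Edn1 to Kdr was -3.10 to -2.58 in WKY and -3.97 to -2.11 in SHR, where the WKY libraries lay inside the SHR range.

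**Figure D5:**
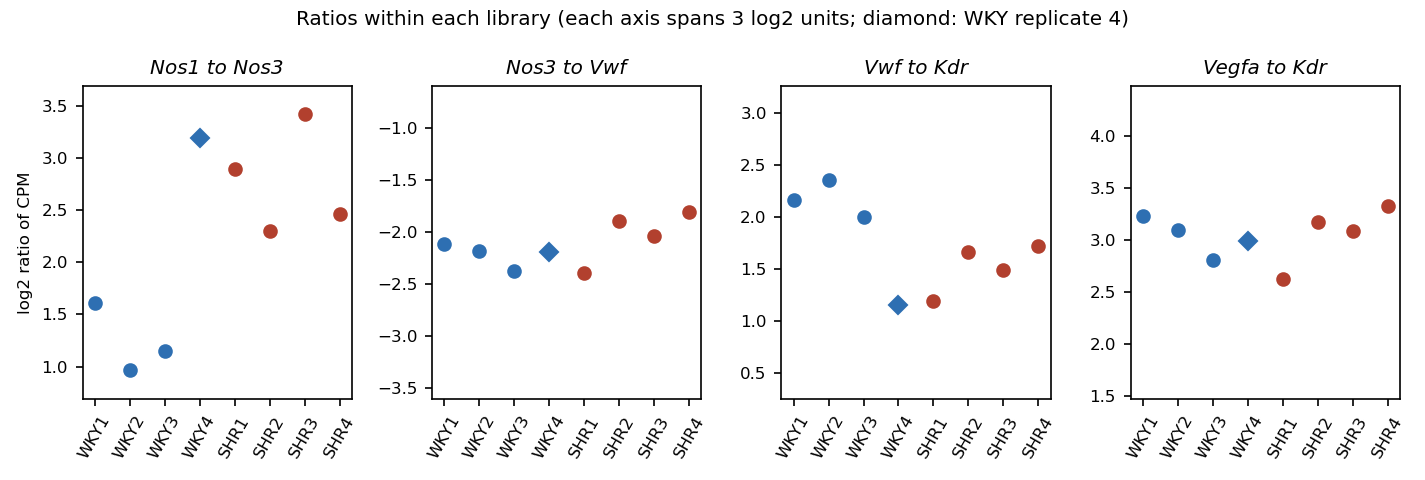
Log2 ratio of CPM between 2 genes within each library, with WKY in blue (replicate 4 as a diamond) and SHR in red. Each vertical axis spans 3 log2 units. Nos1 to Nos3 separates WKY replicates 1 to 3 (0.96 to 1.61) from the other 5 libraries (2.30 to 3.42), while Nos3 to Vwf and Vegfa to Kdr overlap between the strains.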

How the data were processed

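Raw counts of reads per gene were deposited by the authors, as a matrix of 8 libraries and as single-library tables that held the same values. The submitters' processing notes name cutadapt 1.9, HISAT2 2.0.4, StringTie 1.3.4d and the build rn6. Which annotation, strand setting and read filters were used is not given in the sources used here, so reads of overlapping or antisense genes may be included. Strain and replicate come from the sample titles, although per the file headers 4 single-library tables carry another number. Genes with exactly 4 counts outnumbered those with exactly 3 in all libraries, so a count was not taken as a single fragment and no counting intervals were used. Libraries of one strain differed pairwise by a chi-square of at least 15.5 per degree of freedom, so none repeated the counts of another. The closest pair was SHR replicates 2 and 4, and every other pair was at 34.7 or more. The value has no fixed scale where a count is not a single fragment, and it cannot tell whether libraries came from the same animal.

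The members and gene lists were chosen with earlier results of these data known. The symbols of the 6 genes came with the chosen IDs. The reference table gave 0 of 32623 IDs a symbol, so lists of other endothelial, mural, endothelin, VEGF and nitric oxide genes, and the marker check of the tissue, were not analysed here. The rule for named genes took all 6 members and, for each, the gene closest in pattern, with at most 2 printed as IDs.

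Over 16867 genes, edgeR 4.0.16 (R 4.3.3) was fitted with TMM, filterByExpr and strain as the only term. P-values are two-sided and Benjamini-Hochberg adjusted over all genes tested, with a threshold of 0.05. The SE is the log2 fold change divided by the square root of F. Log2 CPM carried a prior count of 2, added to the counts before scaling, and the log2 ratios carried none. The alternatives were RLE scaling, no filter, a filter of 1 CPM in 4 libraries, limma-voom (limma 3.58.1), DESeq2 1.42.0, a block on replicate number, and leaving out each library. DESeq2 and limma-voom without WKY replicate 4, and the ratio of Nos3 to Vwf, were chosen after seeing the data. The edgeR step was tested on simulated data in which no library was set apart from its group, unlike WKY replicate 4. That test therefore does not cover such a case.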

Additional observations from a re-analysis of the deposited data

Results flagged for a closer look

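Of 26 sets of 4 libraries screened (the 6 genes, 6 ratios and the total count in each strain), 1 held a library far from the other 3, where chance picks about 1 in 20. It was the Nos1 level of WKY replicate 4, at 73.1 CPM, beside 26.6 to 33.8 CPM in the other WKY libraries.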

How the results depend on the processing

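The number of genes called over the whole table was 6. It was 3 with no low-count filter, 334 with DESeq2 and 1 to 458 with 1 library left out, the highest without WKY replicate 4. Without that library DESeq2 called 1216 and limma-voom 436. With the replicate number as a block 1 gene was called and 0 of the 6 members (Vwf log2 fold change -0.58, adjusted p = 0.457). Same-numbered libraries had deviations from their strain means correlated at -0.157 to -0.0034, and 0 of 8 libraries were closest to their own number. Some single-library tables carry another number than the title, so whether the numbers mark shared batches was not tested. The cause of the differences in the number of genes called was not tested.

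Leaving out 1 library gave log2 fold changes of 0.39 to 0.995 for Nos1, -0.55 to -0.31 for Nos3, -0.74 to -0.48 for Vwf, -0.41 to -0.023 for Kdr, -0.23 to -0.072 for Vegfa and -0.42 to 0.058 for Edn1, whose sign changed without SHR replicate 4. Without WKY replicate 4, Nos1 and Vwf passed the threshold in edgeR. On the same 7 libraries DESeq2 gave 0.998 for Nos1, -0.55 for Nos3 and -0.73 for Vwf, all 3 past the threshold. With limma-voom Nos1 was at 0.98 and Vwf at -0.75, both past it. RLE scaling, both filters, DESeq2 and limma-voom over 8 libraries called 0 of the 6 and kept each sign.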
